A study of Mus musculus with 16 samples.

Results

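Venous-gated cells were the cells with at least 1 unique molecular identifier (UMI, a tag that counts each captured transcript once) in at least 2 of the 4 genes Slc6a2, Car8, Bst1 and Cpe, and in fewer than 2 of the 4 arterial genes Bmx, Gja5, Mgp and Eln. They numbered 256 of 9036 cells (2.83%) and were chosen by the UMIs of these 8 genes in the same cells that are described here. All cells were sorted lung endothelial cells of female C57BL/6N mice, profiled by droplet single-cell RNA sequencing of transcript 3′ ends. The groups were d0 (wild-type mice), d15 (mice with a primary tumour), d22 (mice after the tumour had been resected) and d36 (mice with metastases), where the tumours had been grown from Lewis lung carcinoma cells, a mouse lung cancer line, placed under the skin. The labels list 4 libraries for each day, but the cell names carry only the day, so each day was 1 pooled sample and neither the spread between libraries nor that between mice could be measured. Levels are counts per 1000000 UMIs (CPM), taken from UMIs summed over the cells of a group.

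Venules and veins collect blood from the capillary bed. In most organs, small veins are the vessels where leukocytes leave the blood, by way of P-selectin, Vcam1 and Icam1, and venous identity is set by the nuclear receptor Nr2f2 (COUP-TFII), which holds back Notch signalling, while arteries carry Notch ligands, ephrin-B2 and Cxcl12. In the lung the capillary bed in between consists of general capillary cells, marked by Gpihbp1 and Lpl, and aerocytes, marked by Car4 and Ednrb, which form the gas-exchange surface. Of the genes that chose the cells, Slc6a2 encodes the noradrenaline transporter, Car8 a carbonic anhydrase relative without catalytic activity, Bst1 (CD157) a surface enzyme that acts on NAD, and Cpe carboxypeptidase E.

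The values that chose the cells are given as a description. Of the 256 gated cells, 118 had UMIs of 2 of the 4 venous genes, 87 of 3 and 51 of all 4. Slc6a2 was the gene most often seen, with a UMI in 83.6% of gated cells, followed by Car8 in 67.2%, Bst1 in 65.6% and Cpe in 57.4%. The pair met most often among cells with only 2 genes was Slc6a2 with Car8, in 34 cells, and the rarest was Car8 with Cpe, in 6. In 987 aerocyte-gated cells outside the venous gate, a type that should lack all 4 genes, each had a UMI in 1.82% to 3.44% of cells, at a median depth of 13555 UMIs against 9332.5 UMIs in gated cells. At least 2 of the 4 genes were met in 6 of 992 aerocyte-gated cells (0.605%, exact 95% interval 0.222 to 1.31%). On the arterial side, 142 of the gated cells carried a UMI of 1 arterial gene, which was Eln in 113 of them, while Gja5 had no UMI in any of the 256 (exact upper limit 1.43%). Another 59 cells met both gates and were not counted as venous.

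Cells just outside the gate, with 1 of the 4 venous genes, numbered 594. Levels of genes that the gate did not use differed with the number of gate genes. Prss23, a secreted serine protease, was at 112 CPM in cells with none of the gate genes, 406 CPM with 1, 2375 CPM with 2, 3759 CPM with 3 and 4449 CPM with 4. Vcam1, an adhesion molecule for leukocytes, was at 14.2, 133, 545, 894 and 1239 CPM in the same bins. Car4, the carbonic anhydrase of aerocytes and neighbouring capillary cells, ran the other way, at 1746, 1926, 638, 44.5 and 47.2 CPM. For Prss23, Vcam1 and Car4, the cells with 2 gate genes thus lay between those with 1 and those with 3 or 4. This order did not hold for every venous gene. Ephb4 was at 63.5, 85.0, 64.4 and 147 CPM with 1, 2, 3 and 4 gate genes, and Ackr1 at 27.8, 79.1, 128 and 17.9 CPM. Median depth differed too, at 6170 UMIs with none of the gate genes and 11349 UMIs with 4.

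**Figure D1:**
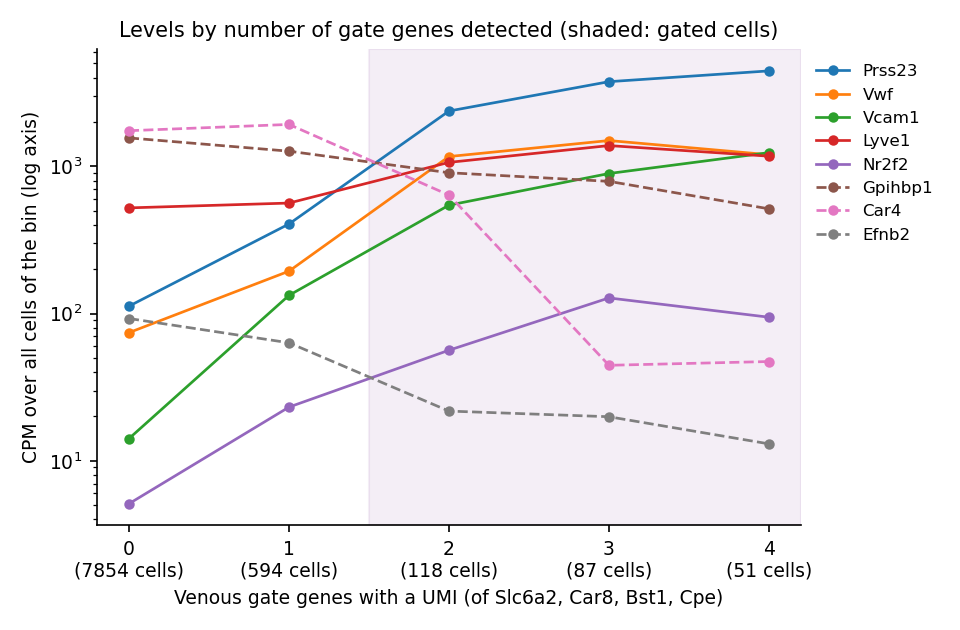
CPM over all cells of a bin (log axis) against the number of the 4 venous gate genes with a UMI, for cells with fewer than 2 arterial genes; the shaded bins are the gated cells. Prss23 lies at 112 CPM with none of the genes and at 4449 CPM with all 4, while Car4 lies at 1746 CPM and 47.2 CPM.

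To check the label on genes outside the gate, all 9036 cells were clustered without the 8 gate genes. Of the 256 gated cells, 223 (87.1%, exact 95% interval 82.4 to 91.0%) lay in 1 of the 20 clusters, led by Fgl2, Tmem45a, Ch25h, Lpcat2, Pla2g4a, Prss23, Amigo2, Vcam1, Dnm3 and Cthrc1. The share was 87.1% at resolutions of 0.5 and 2.0 and 85.5% with 1000 variable genes. Gated cells made up 62.3% of this cluster of 358 cells, and among its 135 ungated cells 68 had 1 of the venous genes, 24 had none and 43 had 2 or more venous genes together with arterial ones. The other 33 gated cells were spread over 13 clusters. Inside the cluster gated cells had Prss23 at 3799 CPM, Vwf at 1409 CPM and Car4 at 91.5 CPM. Gated cells outside it had Prss23 at 613 CPM, Vwf at 524 CPM and Car4 at 1527 CPM.

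Markers of other cell types were low in gated cells. Summed over the 4 days, the pan-leukocyte, neutrophil, T and NK cell and neuroendocrine lists had no UMI in gated cells, the macrophage list was at 2.02 CPM from 1 of its 7 members, and the fibroblast list was at 9.68 CPM in gated cells against 28.4 CPM in all other cells. The epithelial list was at 112 CPM in gated cells and 472 CPM in other cells, and the erythroid and platelet list at 5.65 CPM and 305 CPM. Mural and cardiac muscle lists lay above other cells. The mural level was 334 CPM in gated cells and 20.7 CPM in other cells, and by day gated cells had 151, 70.8, 663 and 29.2 CPM from d0 to d36. Of the 8 mural genes, Rgs5 had UMIs in 31 gated cells, Tagln in 10, Acta2 in 7, Myh11 in 3 and Notch3 in 1, while Cnn1, Pdgfrb and Cspg4 were at 0. Of the gated UMIs of Acta2, 79.7% lay in 1 cell, and of those of Tagln 64.2%. Acta2 and Tagln were the 2 of 3 tested mural genes that passed as higher in the comparison with other cells given next, and Rgs5 did not (edgeR adjusted p = 0.059). The cardiac muscle list was at 41.9 CPM in gated cells and 29.5 CPM in other cells. All of its gated UMIs were of Myl4, in 26 cells, which did not pass the test (edgeR adjusted p = 0.83), and the other 7 members were at 0. Across all cells, 36 barcodes occurred at more than 1 day, and 5 gated cells carried such a barcode.

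Venous-gated cells were 3.74% of sorted cells at d0 (100 of 2671, exact 95% interval 3.06 to 4.54%), 2.72% at d15 (41 of 1507, 1.96 to 3.67%), 2.72% at d22 (88 of 3230, 2.19 to 3.35%) and 1.66% at d36 (27 of 1628, 1.10 to 2.40%). The intervals of d36 and d0 did not overlap, while those of d15 and d22 overlapped that of d0. Cells at d15 and d36 were shallower, which bears on a gate by detection. The median gated cell held 10334, 6714, 10762.5 and 6218 UMIs from d0 to d36, and the median other cell 7600, 4045, 7598.5 and 3351 UMIs. The shallowest other cell held 2576, 1322, 2572 and 1266 UMIs, so the cells that make up the denominator reach lower depths at d15 and d36. With every cell thinned to 2500 UMIs, a depth that 460 cells of d15 and 604 of d36 did not reach, the shares were 3.63%, 3.15%, 2.26% and 1.95% at d0, d15, d22 and d36. At this depth the share at d36 was the lowest of the 4, but its interval (1.20 to 3.0%) overlapped that of d0 (2.95 to 4.41%). With cells thinned further, to a depth that every cell reaches, d36 had 1.23% (0.75 to 1.89%) and d0 2.96% (2.35 to 3.67%). At that lower depth the intervals of d36 and d0 did not overlap. With 1 pooled sample a day there was no test between days, the intervals cover counting error only, and these are shares of sorted cells, so the sort can set them.

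Against all other cells, venous-gated cells had higher levels of the adhesion molecules Vcam1, Selp and Icam1, von Willebrand factor, 4 enzymes that lead to prostaglandins and the acute-phase protein Lrg1, and lower levels of most capillary and aerocyte genes tested and of the Notch ligand Dll4 and target Hey1. The comparison used UMIs summed per day over gated and over other cells, with the 4 days as repeats and day as a block, in edgeR's quasi-likelihood test with Benjamini-Hochberg adjustment over 10562 genes; the gate genes were left out. At an adjusted p under 0.05, 254 genes were higher (2.4% of genes tested) and 439 lower (4.16%). Of these 693 genes (6.56%), 652 differed in the same direction at all 4 days. The median log2 fold change of all genes tested was −0.20. The count of higher genes rested in part on single days, being 167 without d0 and 158 without d22, and 20 of the lower genes had no UMI in gated cells.

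**Figure D2:**
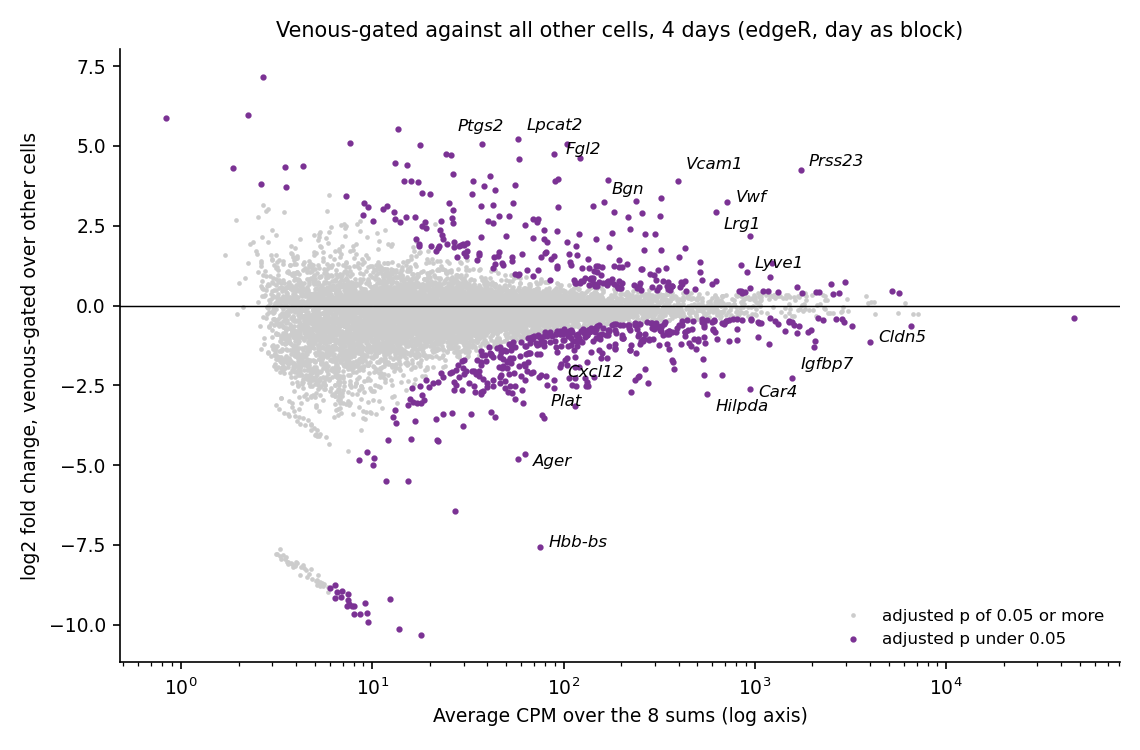
Log2 fold change of venous-gated over all other cells against average CPM (log axis), 1 point a gene, with genes past the adjusted p of 0.05 in purple. Prss23, at 4.25, Vcam1, at 3.89, and Vwf, at 3.26, stand out at high level; the points at the lower left are genes with few or no UMIs in gated cells, whose fitted values are not bounds.

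Most tested genes of the venous identity list were higher. Prss23 had 3059, 3370, 3657 and 3548 CPM in gated cells at d0, d15, d22 and d36, against 190, 173, 147 and 163 CPM in other cells. The 4 gated values lay far above the 4 others, and the log2 fold change was 4.25 ± 0.13 (SE; edgeR adjusted p = 1.7e-29). Vwf, the platelet-binding protein stored in endothelial granules, had 1157, 1832, 1294 and 1110 CPM in gated cells, against 116, 168, 104 and 145 CPM in other cells (3.26 ± 0.15, adjusted p = 6.1e-23). Nr2f2, the regulator of venous fate named above, was low in both but differed, with 66.6, 145, 108 and 40.9 CPM in gated cells against 9.37, 13.5, 6.76 and 8.05 CPM in other cells (3.16 ± 0.41, adjusted p = 5.9e-08). Lyve1, a hyaluronan receptor best known from lymphatic vessels, was present in both, at 1176, 1549, 1124 and 1186 CPM in gated cells and 577, 724, 505 and 503 CPM in other cells (1.04 ± 0.12, adjusted p = 6.4e-09). The venous receptor Ephb4 did not pass the test, at 93.2 CPM in gated cells and 68.1 CPM in other cells over all days (0.39 ± 0.25, adjusted p = 0.54). Of 17 tested members of the venous identity list, 11 were higher and 1, the apelin receptor Aplnr, was lower, with a median log2 fold change of 2.39.

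Adhesion genes split by type. Vcam1 was at 809, 658, 956 and 637 CPM in gated cells at d0, d15, d22 and d36, against 73.6, 36, 46.4 and 43.1 CPM in other cells (3.89 ± 0.17, adjusted p = 9.8e-24). Selp, which encodes P-selectin, was at 78.2, 94.5 and 137 CPM in gated cells at d0, d15 and d22 but had no UMI in the 27 gated cells of d36, against 6.87, 5.51, 3.92 and 4.32 CPM in other cells (3.73 ± 0.53, adjusted p = 5.0e-07). The chemokine-scavenging receptor Ackr1, a marker of venules, passed the test (3.61 ± 0.63, adjusted p = 3.5e-05) but also had no UMI in gated cells at d36, and at d15 90.9% of its UMIs lay in 1 cell. Of 15 tested adhesion genes 5 were higher (Vcam1, Selp, Jam2, Cd44 and Icam1) and 3 were lower (Cd34, Icam2 and Pecam1), and the median of −0.16 was near that of all genes. Among the coagulation genes, Vwf, the plasminogen co-receptor Anxa2 and the protein C receptor Procr were higher, while Plat and F2r were lower. Plat, tissue plasminogen activator, was among the lowest of all genes, at 7.72, 37.1, 5.12 and 5.84 CPM in gated cells against 95.2, 169, 90.7 and 137 CPM in other cells (−3.43 ± 0.36, adjusted p = 2.2e-10).

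**Figure D3:**
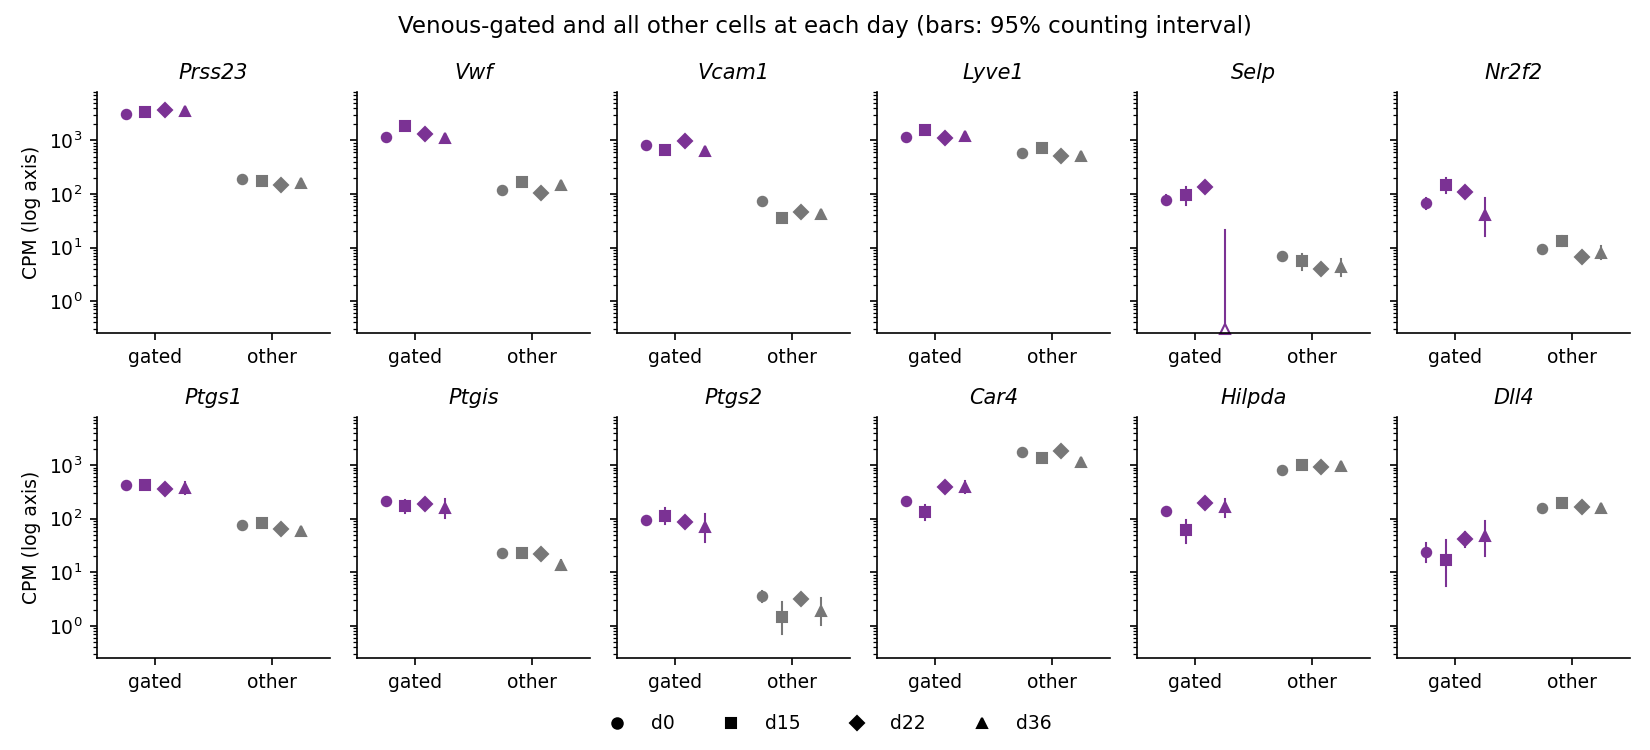
CPM (log axis) of 12 genes in venous-gated cells (purple) and all other cells (grey) at each of the 4 days, with 95% counting intervals; an open symbol at the bottom of the axis is a day with no UMI. Apart from Selp at d36, which had no UMI in gated cells, the gated values of Prss23, Vwf, Vcam1, Lyve1, Selp, Nr2f2, Ptgs1, Ptgis and Ptgs2 lie above those of the other cells, and those of Car4, Hilpda and Dll4 lie below.

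Of the enzymes that lead to prostaglandins, Ptgs1, Ptgs2 and Ptgis of the monoamine and vasoactive list were higher in gated cells, and so was Pla2g4a, which was named by the size of its change. Pla2g4a, the phospholipase that frees arachidonic acid from membranes, was at 91.7, 162, 131 and 169 CPM in gated cells at d0, d15, d22 and d36 and at 8.57, 4.76, 3.47 and 4.77 CPM in other cells (4.60 ± 0.36, adjusted p = 2.5e-14). The cyclooxygenase Ptgs2 was at 93.7, 115, 86.0 and 70.1 CPM in gated cells and 3.57, 1.49, 3.18 and 1.94 CPM in other cells (5.06 ± 0.45, adjusted p = 2.3e-12). Its constitutive relative Ptgs1 was at 425, 425, 357 and 374 CPM in gated cells and 76.4, 85.0, 65.3 and 59.9 CPM in other cells (2.39 ± 0.17, adjusted p = 5.9e-16). For these 3 enzymes the gated value lay above the other value at all 4 days. Ptgis, prostacyclin synthase, averaged over all gated cells 195 CPM, against 21.7 CPM in other cells (3.10 ± 0.24, adjusted p = 2.5e-14). In the monoamine and vasoactive list, 6 of 17 tested members were higher, among them Ptgs1, Ptgis, Ptgs2, Ramp3 and Maob, and 2, the angiotensin-converting enzyme Ace and the natriuretic peptide receptor Npr3, were lower.

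Among the genes with the largest fold changes were secreted factors and lipid enzymes. Lpcat2, an acyltransferase that makes platelet-activating factor, had the largest fold change among genes named by the rule, with 127, 152, 155 and 81.8 CPM in gated cells against 3.30, 5.66, 2.88 and 1.94 CPM in other cells (5.23 ± 0.37, adjusted p = 4.2e-16). Ch25h, which makes 25-hydroxycholesterol, was at 236 CPM in gated cells and 9.29 CPM in other cells over all days (4.63 ± 0.24). The alarmin Il33 was at 60.1 CPM and 2.40 CPM (4.75 ± 0.55), the fibrinogen-like protein Fgl2 at 214 CPM and 7.70 CPM (4.76 ± 0.29), and the ligand Tgfb2 at 90.3 CPM and 6.06 CPM (4.05 ± 0.40), gated cells first in each case. The other genes of the 15 with the largest increases were Tmem45a, Mmp16, Chn2, Lhx6, Cthrc1, Amigo2 and Igfbp5, with log2 fold changes between 3.92 for Igfbp5 and 5.07 for Tmem45a. Lrg1, a secreted glycoprotein that modulates TGF-β signalling in vessels, was abundant, at 957 CPM in gated cells and 112 CPM in other cells over all days (2.93 ± 0.16, adjusted p = 4.0e-20). The chemokine scavenger Ackr3 was higher at 463 CPM in gated cells and 58.6 CPM in other cells, while its ligand Cxcl12 was lower at 82.7 CPM in gated cells and 368 CPM in other cells (−2.25 ± 0.19). The proteoglycan Bgn was at 669 CPM in gated cells and 60.6 CPM in other cells (3.37 ± 0.16), and in the matrix list 6 of 22 tested members were higher (Bgn, Igfbp5, Cyr61, Mmp2, Ctgf and Timp3) and 5, namely Igfbp7, Sparc, Sparcl1, Col4a1 and Col4a2, were lower. The summed mural list was also higher in gated cells (334 CPM against 20.7 CPM in other cells). As given above, 1 cell held 79.7% of the gated Acta2 UMIs and 1 cell 64.2% of those of Tagln, and Rgs5 did not pass. From d0 to d36 the mural list was at 151, 70.8, 663 and 29.2 CPM in gated cells, and Bgn at 707, 540, 698 and 508 CPM. Any part of mural transcripts in the matrix genes was not tested.

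Capillary genes were lower. Car4 was at 215, 135, 391 and 392 CPM in gated cells at d0, d15, d22 and d36, against 1753, 1379, 1844 and 1164 CPM in other cells (−2.61 ± 0.16, adjusted p = 8.6e-18). Of 12 tested aerocyte genes 11 were lower and none was higher, with a median of −2.24, and of 12 general capillary genes 7 were lower and none was higher, with a median of −1.17. Hilpda, a lipid droplet protein, was at 142, 60.7, 197 and 164 CPM in gated cells and 806, 1021, 942 and 966 CPM in other cells (−2.78 ± 0.18). Lpl and Gpihbp1, lipoprotein lipase and its anchor on the capillary wall, were lower too, at −2.23 and −1.22. Pan-endothelial genes were lower as well in 6 of 10 cases, among them the tight junction protein Cldn5 at 2772 CPM in gated cells and 5349 CPM in other cells (−1.13 ± 0.11) and the cadherin Cdh5 at 550 CPM and 1032 CPM (−1.07 ± 0.13), and none was higher. Among the 10 lowest genes, Hbb-bs, Hba-a1 and Ager mark red blood cells and alveolar epithelium. Over all cells their log2 fold changes were −7.56, −4.81 and −4.65. The filter on cells removes cells rich in such transcripts, but also cells by depth, gene number and mitochondrial share. After it, Hbb-bs, Hba-a1 and Ager were at −3.08, −0.92 and −2.31 and no longer passed. The others, Dpp4, Plat, Mfap4, Tmem221, Casc4, Apln and Vegfa, had log2 fold changes of −2.93 to −3.54 over all cells, before that filter. Mfap4 is also a leading gene of a cluster led by fibroblast genes.

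Notch and BMP or TGF-β genes divided by member. Of 12 tested Notch genes 4 were lower and 1 was higher, with a median of −0.68. The Notch ligand Dll4 and the target Hey1 were lower, at 31.5 CPM in gated cells and 165 CPM in other cells for Dll4 (−2.49 ± 0.27) and at 37.5 CPM and 196 CPM for Hey1 (−2.54 ± 0.24), and so were the Notch glycosyltransferases Mfng and Lfng. The ligand Dll1 was the exception, at 136 CPM in gated cells and 46.4 CPM in other cells (1.25 ± 0.26, adjusted p = 0.00064). Of 18 BMP and TGF-β genes, Tgfb2, Bmp4 and Id2 were higher and Tmem100, Smad6 and Acvrl1 were lower. Bmp4 was at 179, 378, 235 and 421 CPM in gated cells at d0, d15, d22 and d36, and at 70.6, 73.4, 88.7 and 66.6 CPM in other cells (1.82 ± 0.19). Of 15 arterial identity genes 7 were lower, but 3, the elastic-fibre genes Fbln5 and Ltbp4 and the cytokine-like gene Cytl1, were higher. Fbln5 was at 512 CPM in gated cells and 46.3 CPM in other cells (3.29 ± 0.18).

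Some inducible genes were higher in gated cells. Of 15 interferon-responsive genes 5 were higher (Ifi27l2a, Igtp, Ifit1, Gbp2 and Ifit3) and none was lower, with a median of 0.42; of 16 immediate early genes 5 were higher (Fos, Atf3, Zfp36, Nr4a1 and Junb) and none was lower, with a median of 0.32; and of 12 STAT3 and acute-phase genes 4 were higher (Lrg1, Il6st, Socs3 and Junb) and none was lower, with a median of 0.31. Apart from Lrg1, the largest of these differences was that of Ifi27l2a, at 162 CPM in gated cells and 22.99 CPM in other cells (2.63 ± 0.30, adjusted p = 1.7e-09), followed by Il6st at 1.21. The others lay at 0.36 to 0.99, for example Fos at 1983 CPM in gated cells and 1291 CPM in other cells (0.57 ± 0.11, adjusted p = 0.00034). Atf3, at 0.79 over all gated cells, was at 0.12 and did not pass with a gate of at least 3 genes, and Zfp36 did not pass without d0, at 0.58, or without d22, at 0.50. Ifit1, at 0.88, was at 0.24 and did not pass after the filter on cells. The immediate early difference was not met against the arterial-gated cells described below. There 1 of 16 such genes was higher (Ier3) and Fos was lower, with a median of −0.14. In that comparison 4 of 13 interferon-responsive genes and 3 of 12 STAT3 and acute-phase genes were higher, and none was lower. MHC genes were close to other cells, with 1 of 11 class I genes higher (H2-T23, 0.62) and 1 of 7 class II genes lower (H2-Ab1, −0.52). H2-T23 did not pass without d22, at 0.57, nor H2-Ab1 without d15, at −0.30. Cyp1a1, the classic target of the aryl hydrocarbon receptor, passed as higher (0.78 ± 0.24, adjusted p = 0.035), yet its summed level was 419 CPM in gated cells and 462 CPM in other cells. At d0 it was at 799 CPM in gated cells against 1210 CPM in other cells, and at d15, d22 and d36 it was at 47.2, 165 and 210 CPM in gated cells against 33.8, 52.7 and 45.9 CPM in other cells. It did not pass without d22, at 0.37, or without d36, at 0.43.

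**Figure D4:**
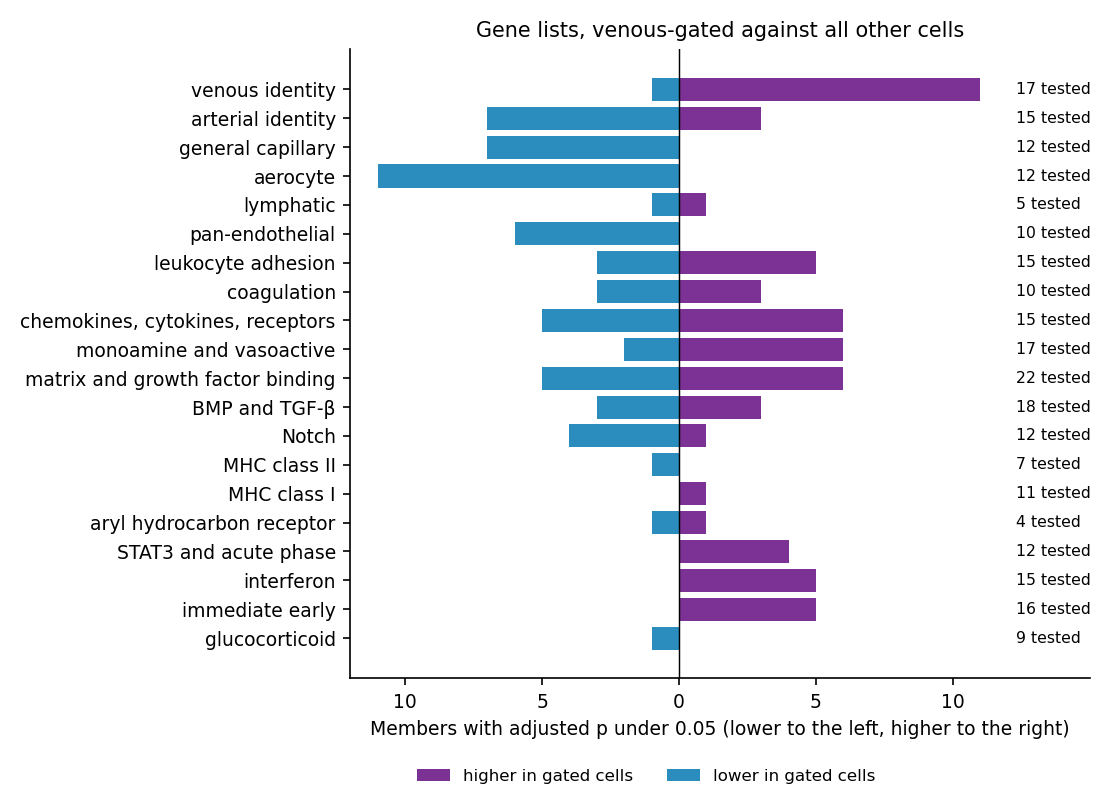
Members of each gene list that passed an adjusted p of 0.05, lower in venous-gated cells to the left and higher to the right, with the number tested at the right margin. The venous identity list has 11 higher and 1 lower of 17 tested, and the aerocyte list 11 lower of 12 tested.

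Arterial-gated cells, 273 cells with at least 2 of the 4 arterial and fewer than 2 of the 4 venous genes, were the large-vessel class closest by design. They were less uniform than the venous-gated cells. In the clusters made without the gate genes, 123 of them lay in 1 cluster, with Plat and Fbln5 among its leading genes. The rest were spread over other clusters, with 25 in a cluster led by Car14 and 18 in one led by Atf3, so this reference was mixed. Of 6781 genes tested in the same way, 100 were higher in venous-gated cells (1.47%) and 123 lower (1.81%), 223 in all (3.29%). The counts fell to 35 and 39 without d22, and to 58 and 69 without d0. Of the 240 genes higher than in other cells that were tested here too, 79 were also higher than in arterial-gated cells, and 7 were lower. Il33 and Mmp16, a membrane-bound metalloproteinase, had no UMI in 2502316 UMIs of arterial-gated cells. With a floor of 3 counts over the group, they were at least 50.1-fold and 45.4-fold higher in venous-gated cells, although Il33 did not pass without d22 (edgeR adjusted p = 0.056). Ptgs2 was at 91.5 CPM in venous-gated and 1.60 CPM in arterial-gated cells over all days (5.82 ± 0.79, edgeR adjusted p = 0.00048), Fgl2 at 214 CPM and 3.60 CPM (5.59 ± 0.64), and Prss23 at 3365 CPM and 176 CPM (4.15 ± 0.21, adjusted p = 5.2e-08). Igfbp5, Dnm3 and Lpcat2 completed the 8 largest, at 4.98, 4.2 and 3.98, and none of these 3 passed without d22, at 4.45, 3.75 and 3.08, nor did Lpcat2 without d0, at 3.82.

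On the arterial side Plat was the clearest difference, at 7.72, 37.1, 5.12 and 5.84 CPM in venous-gated cells at d0, d15, d22 and d36, against 480, 1354, 538 and 755 CPM in arterial-gated cells (−5.96 ± 0.26, adjusted p = 1.5e-08). Sfrp1, a secreted Wnt antagonist, had no UMI in venous-gated cells, at least 56.8-fold lower with a floor of 3 counts over the group. The serine protease Htra1 was at 1.21 CPM in venous-gated and 131 CPM in arterial-gated cells (−6.63 ± 0.64). Atp13a3 was at 0.81 CPM in venous-gated and 74.7 CPM in arterial-gated cells. The other 4 of the 8 lowest genes rested on few cells. They were Gsn, at 57.3 CPM in venous-gated and 3928 CPM in arterial-gated cells, Cxcl14, at 0.81 and 104 CPM, Ppp1r14a, at 1.21 and 91.1 CPM, and the alcohol dehydrogenase Adh1, with no UMI in venous-gated cells and 59.1 CPM in arterial-gated cells. Of the arterial-gated cells, 28 lay in a cluster led by fibroblast genes such as Mfap4, Inmt and Col3a1, and these 28 cells held 91.9% to 98.8% of the arterial-gated UMIs of the 4 genes. Without them the arterial-gated level was 53.8 CPM for Gsn, 1.81 CPM for Cxcl14, 1.81 CPM for Ppp1r14a and 5.43 CPM for Adh1. The fold change of Gsn was then −0.90 and did not pass, and the other 3 fell below the low-count minimum of the test. Without the same cells Plat was at −6.08, Sfrp1, Htra1 and Atp13a3 passed, and 97 genes were higher and 101 lower. Of the arterial identity genes 7 were lower in venous-gated cells (Cxcl12, Gja4, Hey1, Htra1, Dll4, Efnb2 and Ltbp4) and none was higher, so Ltbp4 was higher than in other cells and lower than in arterial-gated cells. Of 15 tested venous identity genes, 7 were higher than in arterial-gated cells (Prss23, Vwf, Ptgs1, Amigo2, Csrp2, Emcn and Vcam1) and none was lower. Nr2f2, Selp and Lyve1, which passed against other cells, were tested here and did not pass.

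Between days, Prss23, Vwf and Vcam1 stayed at 0.79 to 1.58 times their d0 level in venous-gated cells, while MHC class II genes, Cyp1a1, Lrg1 and BMP-related genes differed more. Each later day is given over d0 as a ratio of CPM with an exact 95% interval for counting error, and with 1 pooled sample a day there was no test. A gene counted as measured from 100 CPM at 1 of the 2 days and 30 UMIs in their sum. A gene below that level at 1 day was thus measured only through the other, higher day. The set of measured genes therefore differed between days, and counts of list members above or below d0 depend on it. At d15, CPM at least 2-fold above or below d0 was found for 261 of 2250 measured genes (11.6%; 167 higher, 7.42%, and 94 lower, 4.18%), at d22 by 51 of 2078 (2.45%; 22 higher, 1.06%, and 29 lower, 1.4%) and at d36 by 415 of 2271 (18.3%; 231 higher, 10.2%, and 184 lower, 8.1%). For the same genes the shares in all other cells were 1.96% at d15 (1.33% higher and 0.622% lower), 0.385% at d22 (0.0962% and 0.289%) and 1.94% at d36 (1.23% and 0.705%). The counts in gated cells ran inversely to the number of cells, 41 at d15, 88 at d22 and 27 at d36, and the part of cell number in them was not tested. With TMM scaling of the day sums, which corrects for composition, the split was 142 higher and 127 lower at d15 and 157 higher and 250 lower at d36. With cells thinned to 2500 UMIs it was 126 higher and 197 lower at d15 and 155 higher and 253 lower at d36, so whether higher or lower genes were more numerous changed with the setting.

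Venous genes differed in how far they departed from d0. Of 13 measured genes of the venous identity list, 3 were at 2 or more times d0 at d15 and 1 at 0.5 or below; of 12 at d22 and 10 at d36, none was at 2 or more and 1 was at 0.5 or below. Prss23 was 1.10 times d0 at d15 (95% interval 1.03 to 1.18), 1.20 times at d22 (1.14 to 1.25) and 1.16 times at d36 (1.06 to 1.27), while in other cells it was at 0.91, 0.77 and 0.86 times d0. Vcam1 was at 0.81, 1.18 and 0.79 times d0 at d15, d22 and d36, and Lyve1 at 1.32, 0.96 and 1.01 times. Nr2f2 was 2.18 times d0 at d15 (1.45 to 3.23) and 1.61 times at d22, Amigo2 was 2.30 times at d15, and Ackr1 was 5.21 times at d15, with UMIs in 3 cells. Nr2f2, at 66.6 CPM at d0, counted as measured only through the 145 CPM of d15 and the 108 CPM of d22. At d36 it was at 40.9 CPM and was not counted. Ackr1, at 57.0 CPM at d0, counted at d15 only through its 297 CPM there. Selp was 1.75 times d0 at d22 (1.32 to 2.34), Selp and Ackr1 had no UMI at d36, and the apelin receptor Aplnr was at 0.33, 0.50 and 0.05 times d0 at d15, d22 and d36. Vwf was 1.58 times d0 at d15 (1.43 to 1.75), where other cells had 1.45 times, and was at 1.12 and 0.96 times d0 at d22 and d36. Icam1, an adhesion molecule induced by inflammatory signals, was 1.64 times d0 at d15 (1.39 to 1.93) and 1.53 times at d22, against 1.07 and 1.05 times in other cells. Thbd, the anticoagulant thrombomodulin, was at 0.52 times d0 at d22 and 0.55 times at d36, close to the 0.53 and 0.46 times of other cells. The natriuretic peptide receptor Npr1 was at 0.52, 0.35 and 0.25 times d0, with 213 CPM at d0 and 111, 74.8 and 52.6 CPM at d15, d22 and d36, although only 5 of the gated cells of d36 had a UMI.

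**Figure D5:**
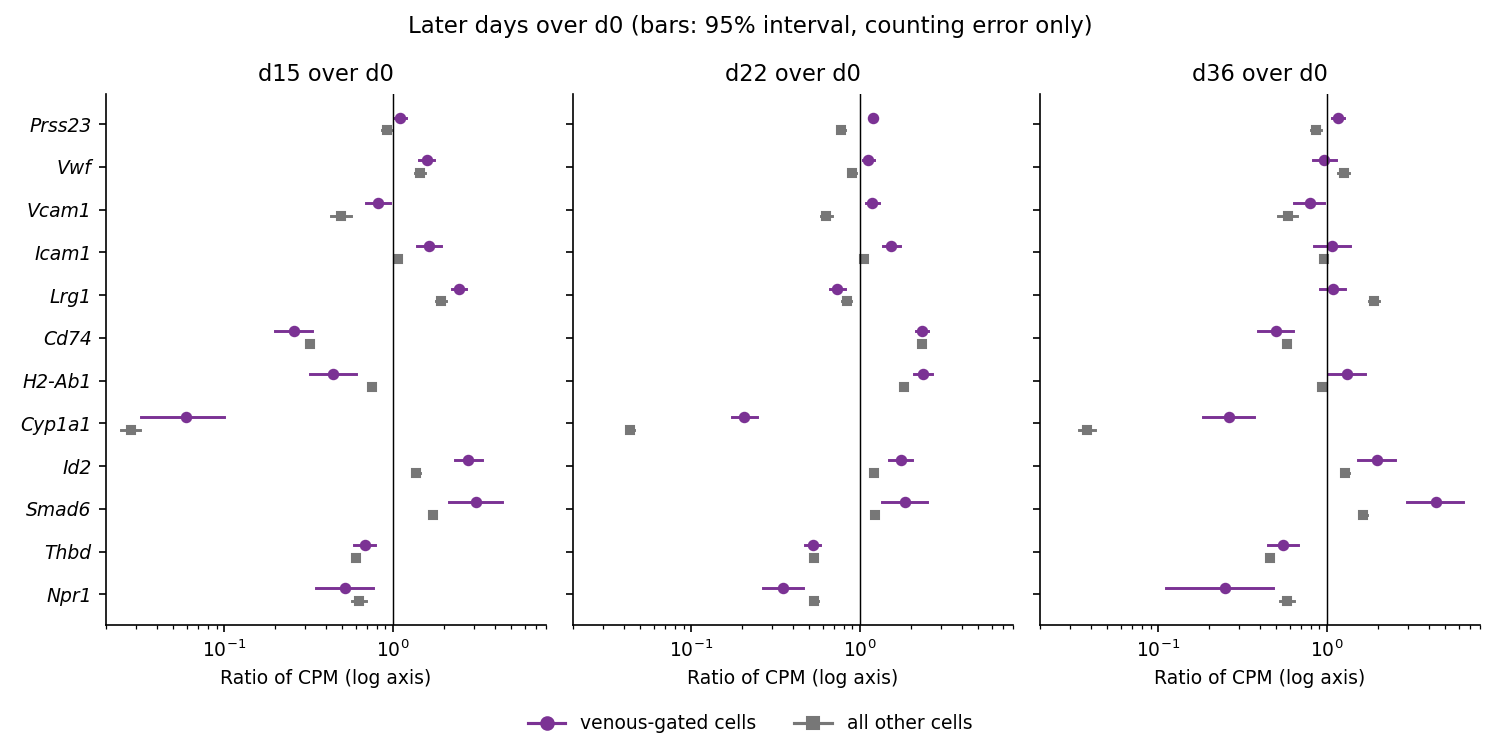
Ratio of CPM at d15, d22 and d36 over d0 (log axis) in venous-gated cells (purple circles) and all other cells (grey squares) for 12 genes, with 95% intervals for counting error; genes not measured at a day have no point. Prss23, Vwf and Vcam1 stay between 0.79 and 1.58 in gated cells, Cd74 lies at 0.26, 2.32 and 0.50, and Cyp1a1 lies at 0.06, 0.21 and 0.26.

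MHC class II genes, whose products present peptides to CD4 T cells, were lower at d15 and higher at d22. Cd74, the invariant chain, was at 916, 236, 2127 and 456 CPM in gated cells from d0 to d36. Its ratios over d0 were 0.26 (0.20 to 0.33), 2.32 (2.15 to 2.51) and 0.50 (0.39 to 0.63), next to 0.32, 2.33 and 0.58 in all other cells. At d22 6 of 6 measured class II genes lay above d0 and 5 of them at 2 or more, with a median log2 ratio of 1.15, against 0.01 for all measured genes and 0.96 for the same genes in other cells. At d15 0 of 4 lay above d0 and 3 were at 0.5 or below, with a median of −1.15, against −0.70 in other cells. The d22 count above d0 was 6 of 6 with cells thinned to 2500 UMIs as well. With a gate of at least 3 genes it was also 6 of 6, but only 1 lay at 2 or more (median 0.89). With per-cell means, 0 of 4 lay above d0 at d15 and 1 was at 0.5 or below. MHC class I genes differed less, with 10 of 10 above d0 at d22 and a median of 0.33.

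Lrg1 was at 891, 2186, 653 and 958 CPM in gated cells at d0, d15, d22 and d36. Its ratio was 2.45 at d15 (2.22 to 2.72) against 1.92 in other cells, 0.73 at d22 (0.66 to 0.81) against 0.83, and 1.08 at d36 (0.91 to 1.27) against 1.90. The difference between gated and other cells was not tested. At d15 25.6% of its UMIs lay in 1 of the 30 gated cells that had any. Cyp1a1 was at 799, 47.2, 165 and 210 CPM. Its ratios of 0.06, 0.21 and 0.26 stood beside 0.03, 0.04 and 0.04 in other cells, and 22 of the 88 gated cells had a UMI at d22 but 1 cell at d15 and 5 at d36.

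Genes of BMP and TGF-β signalling lay above d0 at d15 in 14 of 14 measured members, of which 7 were at 2 or more, with a median log2 ratio of 0.90, against 0.07 for all measured genes and 0.27 for the same genes in other cells. At d36 10 of 10 were above d0, 3 of them at 2 or more, with a median of 0.77, against 0.11 and 0.18. At d22 10 of 11 were above d0 and none at 2 or more, with a median of 0.18, against 0.01 and 0.15. Id2, a target of BMP signalling, was at 252 CPM at d0 and 702 CPM at d15, 2.78 times d0 (2.31 to 3.35), against 1.36 times in other cells. Smad6, an inhibitor of the same pathway, was 3.09 times d0 at d15 and 4.39 times at d36 (2.99 to 6.4; 8 of 27 cells), against 1.72 and 1.63 times in other cells. With 66.6 CPM at d0 and 206 CPM at d15, Smad6 counted as measured only through the later day. Bmp4 was 2.36 times d0 at d36 (1.77 to 3.11), against 0.94 times in other cells, with UMIs in 8 cells. With cells thinned to 2500 UMIs, 10 of 11 measured members lay above d0 at d15 (median 0.58) and 9 of 10 at d36 (median 0.65), but 8 of 12 at d22 (median 0.05). A gate of at least 3 genes gave 10 of 13 above d0 at d15, 9 of 12 at d22 and 12 of 12 at d36. The differences between gated and other cells were not tested.

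Hes1, a Notch target, was 2.1 times d0 at d15 (1.72 to 2.55), against 1.52 times in other cells, and the Notch ligand Jag1 was 7.45 times d0 with UMIs in 7 cells at d15 and 6 at d0. Interferon-responsive genes lay on both sides of d0, with Iigp1 at 0.38 times d0 at d15 and 0.45 times at d36, Ifi27l2a at 0.14 times at d15 in 3 cells, and Igtp at 3.30 times at d36 (2.5 to 4.32). Of the immediate early genes, Egr1 was at 0.34 times d0 at d36 and Dusp1 at 1.88 times.

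The highest ratios among genes seen in at least 10 gated cells of the higher day belonged to genes of modest level. At d15 these were Supt7l at 8.33, Ube2v2 at 7.99, Timm50 at 4.14, Erf at 4.11, Mrpl2 at 3.93 and Ep400 at 3.40 times d0; other cells had 0.78 to 1.79 times for these 6 genes. At d22 Yipf1 was at 3.18, Gna13 at 2.79, Hist4h4 at 2.58, Serpina3g at 2.51 and Fam171a1 at 2.41 times d0, and Ccl21a, the lymphatic chemokine, at 9.91 times with 92.4% of its UMIs in 1 cell. At d36 Rbm8a2 was at 5.73, Ifngr2 at 3.80, Hibadh at 3.52 and Rnaset2a at 3.29 times d0, beside Igtp. The lowest at d15, beside Cyp1a1 and Ifi27l2a, were Gsn at 0.10, Lbr at 0.17, Mdfic at 0.17 and Matr3 at 0.21 times d0, each with UMIs in 2 gated cells at d15, and 75.5% of the Gsn UMIs of d0 lay in 1 cell. At d22 they were Gsn at 0.31, Itga5 at 0.36, Hdgf at 0.37 and AY036118 at 0.37 times d0, with Cyp1a1 and Npr1. At d36 Anp32b, Copb1, Copb2 and Lgmn had no UMI, at least 7.98-fold, 6.06-fold, 7.16-fold and 8.70-fold lower than at d0 with a floor of 3 counts, and Aplnr and Smarce1 had 1 UMI-bearing cell each.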

How the data were processed

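Per the labels' protocols, the cells came from FACS sorts of lung endothelium, and libraries used 10x Genomics' 3′ version 2 chemistry. Cell Ranger 2.1.1 and build mm10 are named in the submitters' processing notes. The sources used here do not state how cells were filtered. The deposited table holds counts, whole UMIs per gene and cell without scaling, for 9036 cells and 28692 gene symbols. It was used unfiltered, no doublet caller was run, and doublets may remain.

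UMIs were summed per day over venous-gated, arterial-gated and all other cells. edgeR 4.0.16 (R 4.3.3; TMM factors, estimateDisp, glmQLFit, glmQLFTest, day as a block) tested gated against other and against arterial-gated cells, with the 8 gate genes out of the test. Gated sums held 171102 to 1035725 UMIs a day. Because each day is 1 pooled sample, p-values measure the spread of a within-day difference over 4 days, not the spread between mice. The gated and other cells of a day share libraries. On simulated counts, 74% of 2-fold and 100% of 4-fold changes were recovered against other cells, with 5 false among 179 calls. Against arterial-gated cells these were 51% and 85%, with 4 false among 140 calls. Changes were placed only in genes with a pooled mean of at least 50 CPM. The simulated spread followed its trend with level, and the days did not differ. Recovery below that mean was not measured, and against other cells Lpcat2, Ptgs2, Il33 and Mmp16 lay below it. Days were compared by ratios with exact binomial 95% intervals, which cover counting error only, take UMIs as independent and are too narrow for genes held by few cells. Where a group had no UMI, folds were taken against 3 counts. Clusters used scanpy 1.11.5 and leidenalg 0.10.2 (2000 variable genes, 30 components, 15 neighbours, resolution 1.0). The filter on cells, an alternative, kept cells with at least 300 genes, at most 10% mitochondrial UMIs, under 3 times the day's median UMIs and under 2% of UMIs from any list of another cell type.

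Genes were named by rule. Against other cells these were the 15 highest and 10 lowest fold changes past the threshold, in the same direction at all 4 days and with at least 50 CPM in the higher group, and against arterial-gated cells the 8 highest and 8 lowest. For each later day these were the 6 highest and 6 lowest ratios with a UMI in at least 10 gated cells of the higher day. From each list came 3 members by p and 2 members a day by ratio, and 8 venous genes were fixed. Predicted, ribosomal, mitochondrial and immunoglobulin genes were left out of the highest and lowest. Some genes that these rules name are not reported here. Other list members named beside a count were added after their values were seen. The gate, the lists and the tests were chosen with earlier results of these data known. Alternatives were other scalings, DESeq2 1.42.0, no low-count filter, thinning, stricter gates, a filter on cells, other expression minimums and leaving out each day.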

Additional observations from a re-analysis of the deposited data

Results flagged for a closer look

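For 11 ratios to d0, venous-gated cells lay on 1 side of 1 and all other cells on the opposite side; the difference between the groups was not tested. At d15 Supt7l was at 8.33 times d0 in gated cells and 0.78 times in other cells, with UMIs in 10 cells. Igfbp7 was at 2.26 times d0 at d15 and 2.80 times at d36 in gated cells, against 0.76 and 0.78 times in other cells, and 54.4% and 74.6% of its gated UMIs at those days lay in 1 cell. The kinase gene Pim1 was at 0.495 times d0 at d15 and 0.321 times at d36 in gated cells, against 1.72 and 1.49 times in other cells, with UMIs in 5 and 4 gated cells. At d22 Ccl21a was at 9.91 times d0 in gated cells and 0.53 times in other cells, with 92.4% of its gated UMIs in 1 cell. At d22 Fam171a1 was at 2.41 times d0 in gated cells, spread over 28 cells, and 0.78 times in other cells.

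At d36, with 27 gated cells, the protease gene Lgmn had 0 UMIs in gated cells, a ratio of 0.0 with an upper limit of 0.14, and was at 1.17 times d0 in other cells. The basement membrane gene Col4a1 was at 0.341 times d0 in gated cells and 1.08 times in other cells, and the Notch ligand Dll1 at 0.424 times and 1.18 times, each with UMIs in 5 gated cells. Iigp1 was at 0.447 times d0 in gated cells, in 8 of them, and 1.06 times in other cells.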

How the results depend on the processing

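Among named genes, 1223 of 1277 gene and setting pairs in the tests kept their direction and side of the threshold. Most of these genes were named for their fold change or p in the main setting, so the count is no independent check. Pairs in which a gene fell out of the test were not counted, as for Adh1, Cxcl14 and Ppp1r14a without the cluster led by fibroblast genes. Against other cells, 384 genes were higher without TMM and 398 by DESeq2 (432 lower). Leaving out each day gave 158 to 349 higher and 321 to 426 lower genes against other cells, and 35 to 95 higher and 39 to 169 lower against arterial-gated cells. Against arterial-gated cells, thinning to 2500 UMIs gave 65 higher and 60 lower genes, a gate of 3 genes gave 44 and 49, and no low-count filter gave 237 lower. The library numbers of the labels are not in the cell names, so only the day could serve as a replicate block or pairing; with no replicate block 277 genes were higher and 408 lower against other cells, 82 and 102 against arterial-gated cells, and Cyp1a1 was at −0.088. Tiparp, which did not pass, was at −1.003 to 0.14 with each day left out. The cause was not tested for any of these.

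Shares at d0, d15, d22 and d36 were 2.96%, 1.79%, 1.83% and 1.23% with cells thinned further, to a depth that every cell reaches. With a gate of 3 genes they were 1.98%, 1.46%, 1.61% and 0.676% at d0, d15, d22 and d36, and without the arterial exclusion 4.75% at d0. The interval of d36 did not overlap that of d0 when thinned further (0.75 to 1.89% and 2.35 to 3.67%). Nor did it with a gate of 3 genes (0.34 to 1.21% and 1.49 to 2.59%). For ratios of at least 2, a gate of 3 genes gave 333 higher and 181 lower genes at d15, 68 and 88 at d22, and 351 and 301 at d36. Measured at 200 CPM and 60 UMIs they were 42 and 30, 9 and 9, and 63 and 50. Thinning gave 197 lower at d15, and 91 higher and 114 lower at d22, and per-cell means gave 41 higher at d22 and 379 at d36.

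On the log2 scale, Ackr1 at d15 was −2.65 thinned, −1.06 with a gate of 3 genes, −1.02 after the filter on cells and −0.36 within the venous-led cluster. Igfbp7 was −0.28 (gate of 3 genes) and −0.82 (cluster) at d15, −0.11 thinned at d22 and −0.35 after the filter on cells at d36. Ccl21a at d22 was −0.81 thinned, −0.98 with a gate of 3 genes and −0.70 in the cluster. Pim1 at d15 was 0.088 with a gate of 3 genes, Serpina3g at d22 −0.049 thinned, and Gsn at d22 0.40 with a gate of 3 genes and 0.18 in the cluster. Most of these have few UMI-bearing cells. The 27 gated cells of d36 limit what can be read at that day.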
